A study of Mus musculus with 12 samples.

Results

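The S100 calcium-binding proteins are a family of small EF-hand proteins, and 9 of their genes were measured at levels that could be tested in mouse 4T1 cells: S100a1, S100a4, S100a6, S100a7a, S100a10, S100a11, S100a13, S100a14 and S100a16. They were taken by gene symbol, as 9 of the 29937 genes in the deposited table, and all 9 were among the 12036 genes that passed the filter on low values (FPKM of at least 1 in at least 3 libraries). S100a8 and S100a9 were left out of the set because their transcripts came almost wholly from 1 library. The measurements are RNA sequencing of poly(A)-selected RNA in 12 libraries of the metastatic mouse mammary carcinoma line 4T1, in 4 groups of 3 libraries named OAP2, Oxa, APAP and PBS. Every group is labelled wild type and adherent, with OAP2, Oxa or APAP as the treatment of the first 3 groups and DMSO as the treatment of the group titled PBS. The PBS values come from columns named CON, which were matched to that group by inference because no other group lacks a drug. The series' design text speaks of xenografts grown from cells, whereas the sample labels describe a cell line. The sources used here give neither doses nor treatment times. Nothing in the labels says that the 3 libraries of a group were separate cultures, so p-values here reflect no more than how these libraries spread.

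Most S100 proteins form dimers, and calcium binding opens a surface through which the dimer holds a partner protein. Inside cells they bind annexins, cytoskeletal motors and p53. Several are also released and act on receptors such as the receptor for advanced glycation end products. S100A4, also called metastasin, binds non-muscle myosin and is known for its link to the motility and metastasis of mammary tumour cells. S100A10 differs from its relatives in that it no longer responds to calcium and works as the partner of annexin A2.

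All 9 genes lie on mouse chromosome 3 (GRCm38) in a pair of blocks. S100a1 (ENSMUSG00000044080, chr3:90511034-90514392, minus strand) is the only member on the minus strand. On the plus strand follow S100a13 (ENSMUSG00000042312, chr3:90514435-90524581), S100a14 (ENSMUSG00000042306, chr3:90526856-90528837), S100a16 (ENSMUSG00000074457, chr3:90537254-90543151), S100a4 (ENSMUSG00000001020, chr3:90603771-90606045), S100a6 (ENSMUSG00000001025, chr3:90612882-90624181) and S100a7a (ENSMUSG00000063767, chr3:90654017-90658669). S100a11 (ENSMUSG00000027907, chr3:93520488-93526287) and S100a10 (ENSMUSG00000041959, chr3:93555080-93564643) form the other block. S100a4 was the only member to overlap another annotated gene, Gm42674 on the same strand, which had 2 counts in OAP2 3 and 0 counts in the other 11 libraries.

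The RefSeq promoter table (GRCm38.p6) matched 7 of the 9 members by symbol, all but S100a10 and S100a14. The 250 bases before the start are shown for S100a4, S100a7a and S100a11, the matched members that changed in a comparison described further on. Capitals mark matches, on either strand, to the TATA box letters TATAAA, the AP-1 letters TGANTCA and an NF-kB motif, searched as GGGA and CC with any 4 bases between them.
S100a4, chr3:90603520-90603769, plus strand: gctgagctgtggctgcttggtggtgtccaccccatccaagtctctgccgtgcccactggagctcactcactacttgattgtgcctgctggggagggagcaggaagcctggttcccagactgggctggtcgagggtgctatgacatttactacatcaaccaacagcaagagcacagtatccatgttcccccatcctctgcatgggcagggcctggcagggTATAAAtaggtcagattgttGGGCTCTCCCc
S100a7a, chr3:90654052-90654301, plus strand: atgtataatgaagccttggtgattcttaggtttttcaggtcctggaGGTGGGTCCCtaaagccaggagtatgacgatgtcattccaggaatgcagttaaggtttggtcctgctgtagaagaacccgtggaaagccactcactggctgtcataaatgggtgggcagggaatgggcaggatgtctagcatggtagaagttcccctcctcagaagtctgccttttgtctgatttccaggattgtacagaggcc
S100a11, chr3:93520246-93520495, plus strand: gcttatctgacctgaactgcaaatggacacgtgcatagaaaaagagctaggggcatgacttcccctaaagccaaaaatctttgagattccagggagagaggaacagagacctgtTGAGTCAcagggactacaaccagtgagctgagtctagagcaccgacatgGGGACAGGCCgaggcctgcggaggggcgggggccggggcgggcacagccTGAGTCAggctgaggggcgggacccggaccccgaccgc
The S100a4 promoter holds TATAAA 31 bases before the start and an NF-kB match 11 bases before it, on the minus strand. In S100a11 the AP-1 letters occur 136 and 38 bases before the start, with an NF-kB match at 87, and in S100a7a the NF-kB letters occur at 204 on the minus strand. The S100a7a window lies inside the annotated gene, just before the start of its protein-coding transcript. Of 32851 mouse promoter windows, 12.4% hold TATAAA, 6.75% hold TGANTCA and 17.6% hold the NF-kB letters, and no match overlapped another. A match describes letters in this window and was not tested as a binding site. S100a1 and S100a13 start back to back, with 42 bases between their genes by the gene positions given above. These bases are shown because the transcripts of this pair varied separately, as described with the library differences. That is not particular to the pair, since S100a13 also varied separately from several other members. The RefSeq start of S100a1 lies further inside its gene, next to its promoter window at chr3:90514331-90514580.
Between S100a1 and S100a13, chr3:90514393-90514434, plus strand: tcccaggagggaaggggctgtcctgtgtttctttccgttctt

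The libraries held between 64071751 and 71500487 estimated counts. PBS 2 stood apart from the other 11 libraries. Its summed FPKM over 12 neutrophil markers was 68.4, against at most 0.73 elsewhere, and over 7 red blood cell markers it was 232, against at most 0.37. The neutrophil markers include S100a8 and S100a9, which gave most of that sum (17.77 and 35.47 FPKM in PBS 2). These genes were left out of the set for the same values, so the neutrophil sum is not separate evidence. Ly6g, Mpo, Elane and Retnlg were listed at 0 in all of those 11 libraries. All 8 epithelial markers were present throughout, and their mean log2(FPKM + 1) ranged from 6.92 to 7.32. Among markers of other cells, those of fibroblasts (summed FPKM up to 2.56), endothelium (up to 0.1), lymphocytes (up to 0.61) and muscle (up to 0.67) were near 0. Each of these highest sums was in PBS 2, against at most 1.79, 0.09, 0.17 and 0.17 in the other 11 libraries. Keratinocyte markers summed to between 2.25 and 3.15 FPKM in OAP2, 6.29 and 7.74 in Oxa and 2.75 and 3.66 in APAP, and to 20.7 in PBS 2 with 3.63 as the lowest PBS value. Krt14 gave most of the sum in Oxa and PBS 2, but in OAP2 3 it was at 1.5 FPKM beside Krt10 at 1.65. Macrophage markers summed to 50.1 in PBS 1 and to between 15.5 and 24.5 elsewhere. OAP2 3 was the other library that stood off from its group, at -23.77 on the second principal component of log2 CPM, against 3.85 for OAP2 1 and 3.35 for OAP2 2, on the side of PBS 2 (-37.87). On the first component PBS 2 stood at 29.23, within the Oxa range (23.61 to 33.84), against -6.9 for PBS 1 and -22.54 for PBS 3.

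S100a6, S100a11 and S100a10 made up most of the S100 transcript pool. Together they gave between 84.7% and 87.6% of the summed FPKM of the 9 members, which lay between 335 and 644 per library. Averaged over the 12 libraries, S100a6 was at 174 FPKM, S100a11 at 149 and S100a10 at 79.0. S100a14 followed at 23.1 FPKM, S100a4 at 15.7 and S100a1 at 11.2, and S100a16, S100a7a and S100a13 stood lowest at 6.02, 4.43 and 3.12. FPKM is scaled to transcript length, but levels of different genes can be set beside each other only roughly. In OAP2 1, for example, S100a6 had 16624 counts at 144.51 FPKM and S100a11 had 5804 counts at 134.97 FPKM.

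**Figure D1:**
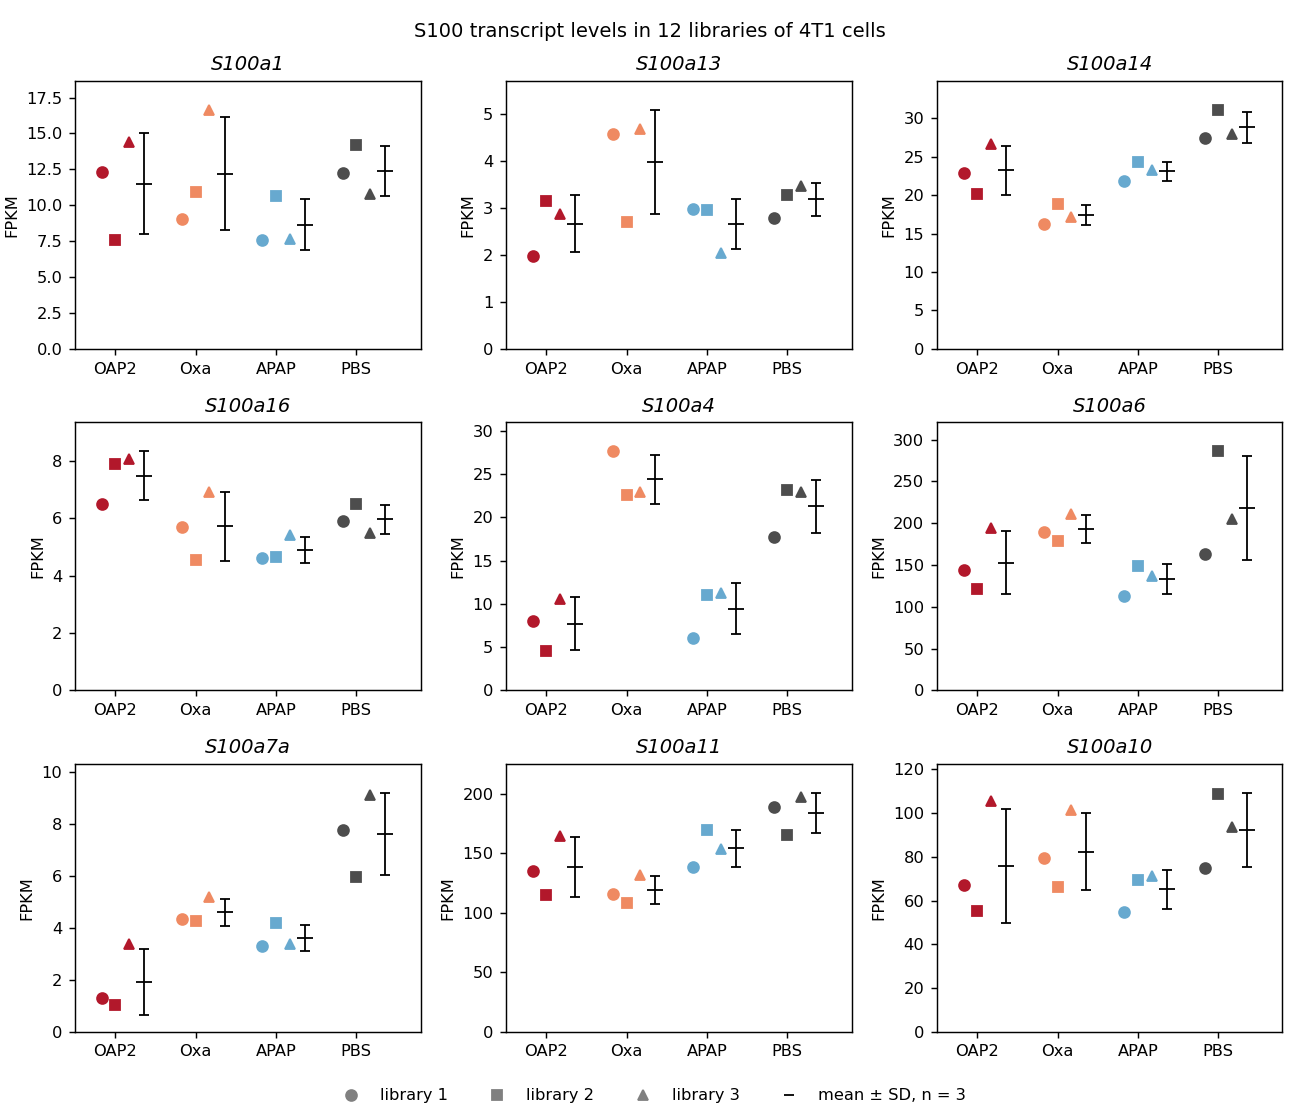
FPKM of the 9 S100 genes (vertical axes, each from 0) in the OAP2, Oxa, APAP and PBS libraries. Points are libraries and bars are the mean ± SD (n = 3). The OAP2 and APAP libraries of S100a4, at 4.57 to 11.24 FPKM, sit below all Oxa and PBS libraries, at 17.72 or more.

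S100a4 split the 4 groups into a low and a high pair. Its FPKM was 8.02, 4.57 and 10.58 in OAP2 1 to 3, 27.66, 22.64 and 22.88 in Oxa 1 to 3, 6.04, 11.08 and 11.24 in APAP 1 to 3, and 17.72, 23.12 and 22.93 in PBS 1 to 3. All 6 OAP2 and APAP libraries lay below all 6 Oxa and PBS libraries. The group means were 7.72 ± 3.02 FPKM in OAP2, 24.4 ± 2.83 in Oxa, 9.45 ± 2.96 in APAP and 21.3 ± 3.06 in PBS (SD, n = 3 each). Within each pair the groups overlapped: OAP2 against APAP differed by -0.32 ± 0.28 (log2, SE, 95% interval -0.93 to 0.29) and Oxa against PBS by 0.21 ± 0.28 (-0.39 to 0.81).

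S100a7a, the mouse relative of human psoriasin and a chemoattractant of inflamed skin, had its highest values in PBS. It stood at 1.31, 1.04 and 3.38 FPKM in OAP2 1 to 3, 4.34, 4.25 and 5.19 in Oxa 1 to 3, 3.29, 4.19 and 3.37 in APAP 1 to 3, and 7.77, 5.95 and 9.11 in PBS 1 to 3. Each PBS library was above all 9 libraries of the treated groups. OAP2 3 was the high library of its group and reached the APAP range, while OAP2 1 and OAP2 2 lay below every other library. In ascending order the group means were 1.91 ± 1.28 FPKM in OAP2, 3.62 ± 0.498 in APAP, 4.59 ± 0.519 in Oxa and 7.61 ± 1.59 in PBS (SD, n = 3 each). No neighbours in this order passed the test against each other, although OAP2 did against Oxa and against PBS.

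S100a11, which binds annexin A1, and S100a14, a protein of epithelial cells whose EF hand has lost key calcium-binding residues, had their lowest values in Oxa. For S100a11 the FPKM was 134.97, 114.72 and 164.63 in OAP2 1 to 3, 116.04, 108.17 and 131.53 in Oxa 1 to 3, 138.05, 169.61 and 153.41 in APAP 1 to 3, and 188.83, 164.89 and 197.27 in PBS 1 to 3. The Oxa libraries lay below all APAP and PBS libraries, and the OAP2 libraries overlapped both Oxa and APAP and came up to just under the lowest PBS library. For S100a14 it was 22.90, 20.20 and 26.59 in OAP2 1 to 3, 16.25, 18.89 and 17.12 in Oxa 1 to 3, 21.84, 24.26 and 23.22 in APAP 1 to 3, and 27.46, 31.10 and 27.91 in PBS 1 to 3. Here the 3 Oxa libraries were the lowest of the 12 and the 3 PBS libraries the highest, with OAP2 and APAP overlapping between them.

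The other 5 members had less separated groups. S100a6, or calcyclin, which binds the calcyclin-binding protein CacyBP, averaged 153 ± 37.5 FPKM in OAP2, 193 ± 16.4 in Oxa, 133 ± 18.2 in APAP and 218 ± 62.6 in PBS. The width of the PBS group came from PBS 2 at 286.24 FPKM, against 163.04 and 204.95 in PBS 1 and PBS 3. S100a10 averaged 75.9 ± 26.1 FPKM in OAP2, 82.4 ± 17.6 in Oxa, 65.1 ± 9.12 in APAP and 92.4 ± 17.0 in PBS, the same order of groups as S100a6. S100a1, best known for calcium handling in heart muscle, averaged 11.5 ± 3.51 FPKM in OAP2, 12.2 ± 3.95 in Oxa, 8.65 ± 1.76 in APAP and 12.4 ± 1.73 in PBS. The groups of S100a1 overlapped throughout except that its APAP libraries lay below its PBS libraries. S100a13, which takes part in the release of FGF1 and interleukin 1 alpha, averaged 2.66 ± 0.607 FPKM in OAP2, 3.98 ± 1.11 in Oxa, 2.66 ± 0.534 in APAP and 3.18 ± 0.347 in PBS, with every pair of groups overlapping. S100a16, a widely expressed member, averaged 7.48 ± 0.857 FPKM in OAP2, 5.72 ± 1.2 in Oxa, 4.89 ± 0.439 in APAP and 5.96 ± 0.502 in PBS, and was the only member with its highest mean in OAP2. In these bulk samples, fewer cells of a type and less RNA per cell cannot be told apart.

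The effect of each treatment was read against PBS with edgeR's quasi-likelihood test, and p-values were adjusted by Benjamini and Hochberg over the 12036 genes tested. Past an adjusted p of 0.05, 2 of the 9 members were lower in OAP2 and 0 were higher, in a comparison where 5.25% of all tested genes were called with 3.11% lower and 2.14% higher. S100a4 fell by 1.44 ± 0.28 on the log2 scale (SE, 95% interval -2.06 to -0.83, adjusted p = 0.0113), which is 0.368 times the PBS level. S100a7a fell by 1.97 ± 0.35 (-2.73 to -1.20, adjusted p = 0.00712), to 0.256 times the PBS level. Both calls were lost when only the 6 OAP2 and PBS libraries were fitted (adjusted p of 0.104 for S100a4 and 0.114 for S100a7a), a fit that called 38 genes in all against 632. Without OAP2 3 the S100a7a difference grew to -2.66.

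S100a11 and S100a14 also had all 3 OAP2 libraries below all 3 PBS libraries, without passing the test: the differences were -0.40 ± 0.13 (adjusted p = 0.0937) and -0.30 ± 0.11 (adjusted p = 0.147). S100a16 had its OAP2 libraries above the PBS libraries, at 0.34 ± 0.17 (adjusted p = 0.269). So 5 members had groups that did not overlap, 4 lower and 1 higher, where 18.7% of all tested genes had such groups, 9.94% lower and 8.78% higher. Overlap here and below was read on the deposited FPKM, whereas the differences come from TMM-scaled counts. Narrow separations, such as that of S100a11 (164.63 FPKM in OAP2 3, 164.89 in PBS 2), need not hold on both scales. S100a6 (-0.50 ± 0.20, adjusted p = 0.163), S100a10 (-0.27 ± 0.21), S100a13 (-0.23 ± 0.28) and S100a1 (-0.11 ± 0.26) overlapped. The median over the 9 members was -0.30, beside 0.00 over all tested genes. Leaving out OAP2 3 added S100a6 (-0.70, adjusted p = 0.0480), S100a11 (-0.55, adjusted p = 0.0205) and S100a14 (-0.41, adjusted p = 0.0449) to the calls, for 5 members in all, in a fit that called 926 genes against 632. Leaving out PBS 2 added S100a11 (-0.47, adjusted p = 0.0283) in a fit that called 1976 genes, while S100a6 moved to -0.25.

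Against PBS, S100a11 and S100a14 were the 2 members lower in the Oxa group and 0 were higher, in a comparison where 10.1% of all tested genes were called, 4.76% lower and 5.35% higher. S100a14 fell by 0.72 ± 0.11 on the log2 scale (-0.96 to -0.47, adjusted p = 0.00372), to 0.609 times PBS. S100a11 fell by 0.62 ± 0.13 (-0.91 to -0.34, adjusted p = 0.0104), to 0.648 times PBS, a call lost without Oxa 2 (adjusted p = 0.0587). The Oxa libraries of S100a7a also lay below its PBS libraries, at -0.72 ± 0.34 (adjusted p = 0.196, and 0.00251 without PBS 2 and OAP2 3, a fit that called 4258 genes against 1217), which made 3 of 9 members with separate groups beside 29.1% of all tested genes, 14.6% lower and 14.5% higher. S100a4 differed by 0.21 ± 0.28 (adjusted p = 0.675), and S100a13 by 0.33 ± 0.28. S100a1, S100a6, S100a10 and S100a16 differed by between -0.17 and -0.02. Beside these differences, the summed FPKM of the keratinocyte markers, in Oxa mostly Krt14, was 6.29 to 7.74 in Oxa, against 3.63 to 20.7 in PBS. Its part in them was not tested. The member median was -0.16 and that of all tested genes was -0.01.

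**Figure D2:**
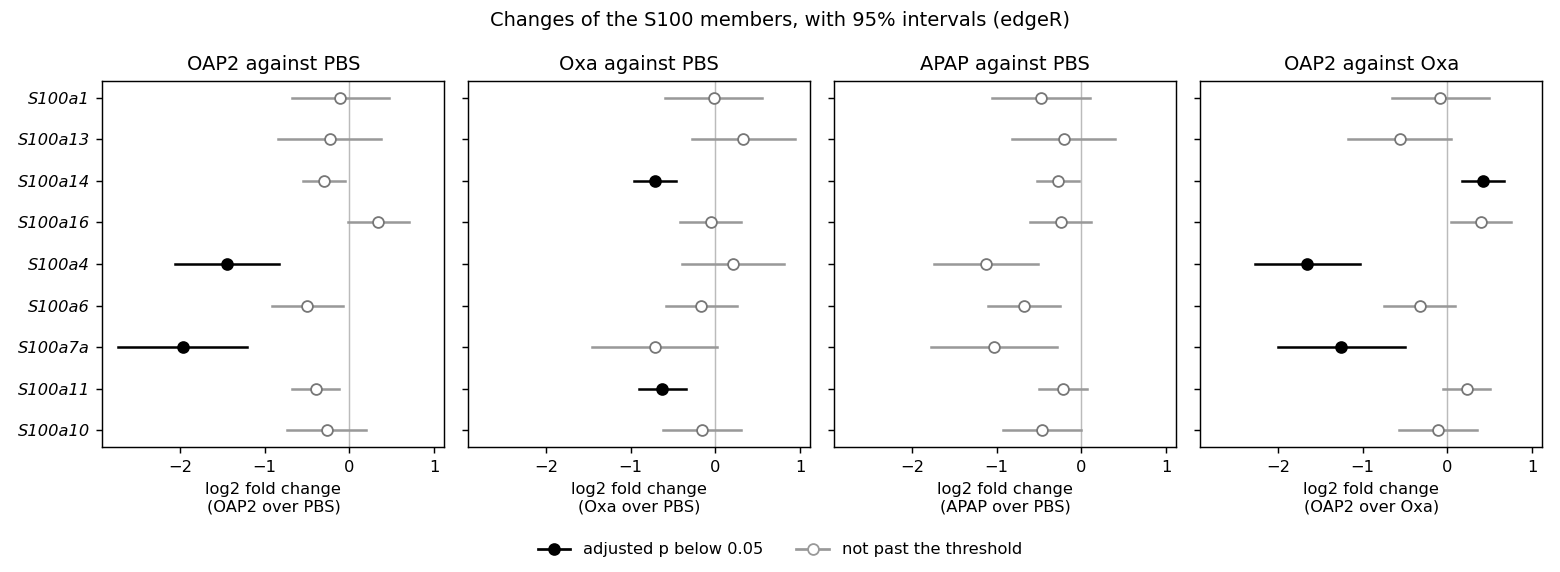
Log2 fold changes of the 9 S100 genes with 95% intervals (edgeR, horizontal axes) for OAP2, Oxa and APAP over PBS and for OAP2 over Oxa. Filled points pass an adjusted p of 0.05: S100a4 and S100a7a for OAP2 over PBS, S100a14 and S100a11 for Oxa over PBS, none for APAP, and S100a14, S100a4 and S100a7a for OAP2 over Oxa.

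APAP against PBS called 0 of the 9 members, with 0.0166% of all tested genes called, while 5 members had an unadjusted p below 0.05. Every fitted difference was negative. By FPKM, the groups did not overlap for 7 members, all lower in APAP, where 15.9% of all tested genes had separate groups, 11.2% lower and 4.67% higher. This separation was narrow for S100a1 (10.68 in APAP 2, 10.79 in PBS 3) and S100a16 (5.40 in APAP 3, 5.49 in PBS 3). It need not hold for them on the scaled counts. S100a4 differed by -1.13 ± 0.28 (-1.74 to -0.52, adjusted p = 0.275), S100a7a by -1.03 ± 0.34 (-1.77 to -0.29, adjusted p = 0.407) and S100a6 by -0.67 ± 0.20 (-1.10 to -0.25, adjusted p = 0.350). Without PBS 2 the S100a6 difference was -0.42 (adjusted p = 0.386). S100a1, S100a10, S100a14 and S100a16 made up the rest of the 7, at between -0.48 and -0.25. Only S100a11 (-0.22 ± 0.13) and S100a13 (-0.21 ± 0.28) overlapped by FPKM. DESeq2, run in place of edgeR, called S100a4 (-1.13, adjusted p = 0.0141) and no other member, in a fit that called 97 genes against 2. S100a7a was called without PBS 2 and OAP2 3 (-1.18, adjusted p = 0.0163), in a fit that called 72 genes against 2. The median over members was -0.46, beside 0.00 over all tested genes. The 3 comparisons with PBS share the same control libraries, so the values of a member in them are not independent.

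The treated groups were also set against each other, differences into which no PBS level enters. OAP2 against Oxa called 3 of 9 members, 2 lower and 1 higher, beside 12.9% of all tested genes (6.91% lower and 6.02% higher). S100a4 was lower in OAP2, at -1.65 ± 0.29 (-2.27 to -1.03, adjusted p = 0.00284), 0.318 times the Oxa level. S100a7a was lower, at -1.25 ± 0.35 (adjusted p = 0.0330), and S100a14 was higher, at 0.42 ± 0.11 (adjusted p = 0.0302). The S100a4 call held in all 16 alternative settings. That of S100a7a held in 9 of 16 (adjusted p up to 0.118) and was lost without any single OAP2 or Oxa library except OAP2 3, without which the difference was -1.94. That of S100a14 held in 11 of 16 (up to 0.111) and was lost without OAP2 1, OAP2 3, Oxa 1 or Oxa 3. S100a16 (0.40 ± 0.17) and S100a13 (-0.56 ± 0.28) did not pass, with adjusted p of 0.138 and 0.214. These 3 called members were also the only ones whose OAP2 and Oxa libraries did not overlap, beside 36.1% of all tested genes (20.5% lower and 15.6% higher).

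OAP2 against APAP called 0 of 9 members, beside 0.474% of all tested genes (0.199% lower and 0.274% higher), with 2 members at an unadjusted p below 0.05. S100a16 was the only member with groups that did not overlap, where 25.7% of all tested genes had such groups, 11.1% lower and 14.6% higher. It had 6.50, 7.88 and 8.07 FPKM in OAP2 1 to 3, against 4.63, 4.65 and 5.40 in APAP 1 to 3. The difference was 0.59 ± 0.17 (0.23 to 0.94, adjusted p = 0.128), and DESeq2 called it (adjusted p = 0.0216), in a fit that called 506 genes against 57. S100a7a differed by -0.94 ± 0.35 (-1.69 to -0.19, adjusted p = 0.222), and by -1.63 (adjusted p = 0.0176) without OAP2 3, in a fit that called 125 genes against 57.

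Oxa against APAP called 3 of 9 members, 1 higher and 2 lower, beside 15.4% of all tested genes (8.21% higher and 7.18% lower). S100a4 was higher in Oxa by 1.33 ± 0.28 (0.72 to 1.95, adjusted p = 0.00883), 2.52 times the APAP level, and this call held in all 15 alternative settings. S100a14 was lower, at -0.44 ± 0.11 (adjusted p = 0.0223), which held in 10 of 15 settings (adjusted p up to 0.0969) and was lost without Oxa 1, Oxa 3, APAP 2 or APAP 3. S100a11 was lower, at -0.41 ± 0.13 (adjusted p = 0.0488), which held in 4 of 15 (up to 0.185) and was lost without any 1 of the 6 libraries compared. The groups of 5 members did not overlap, 3 higher and 2 lower, beside 47.8% of all tested genes (27.3% higher and 20.4% lower). The further members with separate groups were S100a6 (0.51 ± 0.20, adjusted p = 0.0988) and S100a7a (0.31 ± 0.34, adjusted p = 0.574). For S100a7a this separation was narrow, with 4.25 FPKM in Oxa 2 and 4.19 in APAP 2.

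Within a group, the members tended to be high or low in the same libraries. By log2 CPM, OAP2 3 was the highest of its group for 8 of 9 members and OAP2 2 the lowest for 7. Oxa 3 was the highest for 7 and Oxa 2 the lowest for 5, APAP 2 the highest for 7 and APAP 1 the lowest for 6, and PBS 2 the highest for 6. By FPKM, Oxa 2 was the lowest for 7 and APAP 1 for 8. The largest departure was that of S100a7a in OAP2 3, at 1.00 above the OAP2 mean on the log2 CPM scale. In OAP2 2 the lowest were S100a4 at -0.66 and S100a7a at -0.65. Over the 36 pairs of members, the median Pearson correlation of these deviations across the 12 libraries was 0.52, with 32 pairs above 0, and for log2 CPM itself it was 0.34, with 30 above 0. The same medians over all pairs of tested genes were close to 0. S100a6 and S100a10 had the highest correlation in log2 CPM, at 0.90, with 0.89 for deviations. S100a7a and S100a11 had the highest for deviations, at 0.90, with 0.57 for log2 CPM. S100a1 and S100a13, the pair with 42 bases between their gene positions, were at -0.01 for deviations and 0.20 for log2 CPM. For deviations, S100a13 ranged over its pairs from -0.31 with S100a14 to 0.51 with S100a16. These correlations share libraries and depth and are given as a description.

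**Figure D3:**
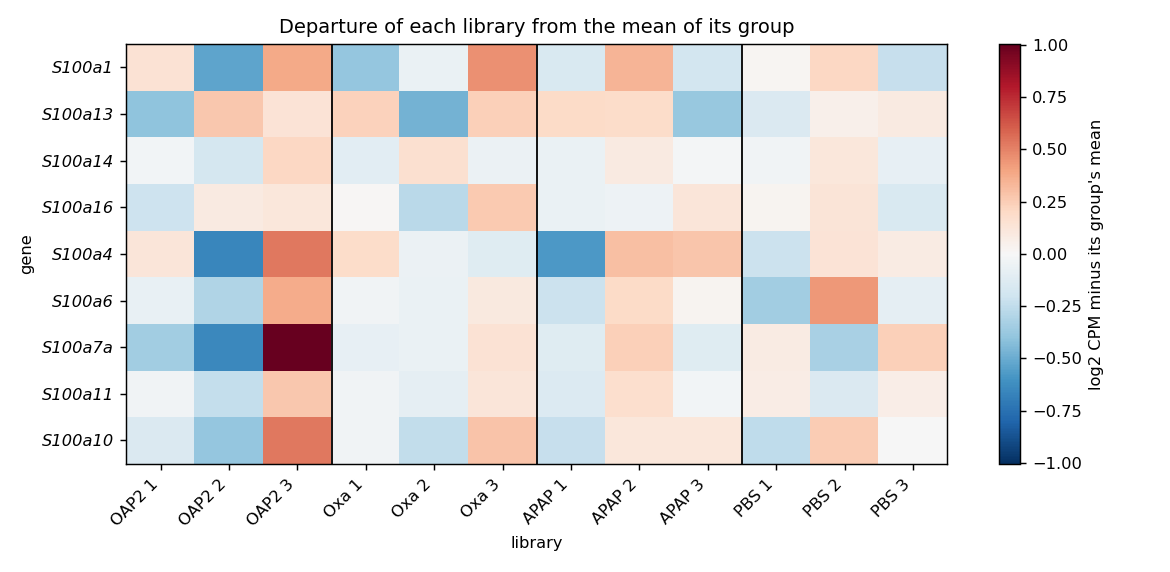
Log2 CPM of each S100 gene (rows) in each library (columns) minus the mean of its group, from blue (below the mean) to red (above). OAP2 3 is red for all 9 genes, most deeply for S100a7a at 1.00, and OAP2 2 is blue for 7.

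Short transcripts in general were also high in OAP2 3. Over the 1723 tested genes whose longest transcript is under 1000 bases, the median departure from the gene's mean over 12 libraries was 0.245 in OAP2 3, against -0.015 and -0.109 in OAP2 1 and OAP2 2. It lay between -0.086 and -0.006 in Oxa, between -0.065 and 0.049 in APAP and between 0.029 and 0.081 in PBS. S100a4 (498 bases), S100a11 (511), S100a1 (677), S100a10 (685), S100a13 (715) and S100a6 (783) are in this class, and S100a16 (1127), S100a7a (1280) and S100a14 (1683) are not. With the length trend of each library removed, an alternative chosen after seeing the data, the called members of OAP2 against PBS stayed called and S100a11 joined them (-0.41, adjusted p = 0.0215). That fit called 743 genes in all against 632. The part of transcript length and of PBS 2's blood cell transcripts in the uncalled differences was not tested.

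Of the other family members, S100a3 was the only tested gene, with 223 to 818 counts per library. It had 1.39, 1.26 and 2.89 FPKM in OAP2 1 to 3, 1.88, 1.94 and 2.51 in Oxa 1 to 3, 1.84, 1.99 and 2.41 in APAP 1 to 3, and 3.66, 1.03 and 3.57 in PBS 1 to 3. PBS 2 was the lowest of the 12 libraries, while PBS 1 and PBS 3 lay above all others. OAP2 differed from PBS by -0.56 ± 0.41 (adjusted p = 0.486), and without PBS 2 by -0.95, which passed the test (adjusted p = 0.0424). S100a8 was at 17.77 and S100a9 at 35.47 FPKM in PBS 2, against at most 0.23 and 0.07 in the other libraries. S100a2, S100b and S100g did not pass the filter. Of 7 fused-type S100 genes of the epidermis, such as filaggrin, 3 had a row and 0 passed the filter.

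Of 16 listed intracellular partners of S100 proteins, 14 were tested, and between 0 and 4 of them were called in each comparison. Of all tested genes, 5.25% were called for OAP2 against PBS, 10.1% for Oxa against PBS and 0.0166% for APAP against PBS. The shares were 12.9% for OAP2 against Oxa, 0.474% for OAP2 against APAP and 15.4% for Oxa against APAP. Annexin A1 (Anxa1, partner of S100A11) at 174 FPKM and annexin A2 (Anxa2, partner of S100A10) at 158 FPKM were the most abundant, close to the levels of S100a6 and S100a11. OAP2 against PBS called 1 partner lower, Il1a, whose release S100A13 assists. It had 10.46, 9.69 and 8.40 FPKM in OAP2 1 to 3, against 18.90, 178.41 and 9.32 in PBS 1 to 3. The difference was -2.85 ± 0.77 (adjusted p = 0.0486) and without PBS 2 it was -0.57 (adjusted p = 0.132). The call was also lost without any single OAP2 library. Oxa against PBS called 2 partners higher and 0 lower: Myh9, the non-muscle myosin heavy chain that S100A4 binds, at 0.47 ± 0.11 (adjusted p = 0.0151), and annexin A6 (Anxa6), at 0.45 ± 0.11 (adjusted p = 0.0220). Myh9 had 64.20, 61.93 and 61.10 FPKM in Oxa 1 to 3, against 43.17, 48.15 and 44.38 in PBS 1 to 3, so its groups did not overlap. The Myh9 call was lost without Oxa 1, Oxa 2, PBS 1 or PBS 3 (adjusted p of 0.0530 to 0.0602), and the Anxa6 call without any Oxa library, PBS 1 or PBS 3 (0.0507 to 0.0840). APAP against PBS and OAP2 against APAP called 0 of the 14. OAP2 against Oxa called 1 lower, Trp53 (-0.36 ± 0.10, adjusted p = 0.0316), a call lost without OAP2 2, OAP2 3 or any Oxa library. Oxa against APAP called Anxa6 (0.41), Sugt1 (0.41) and Myh9 (0.39) higher and Ppfibp1 (-0.39), a liprin that S100A4 binds, lower, and each of these 4 calls was lost without at least 4 of the 6 libraries in turn.

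Of 8 listed receptors of secreted S100 proteins, 6 were tested and basigin (Bsg), at 149 FPKM, was the most abundant. The shares of all tested genes called are those given for the partners: 5.25% for OAP2 against PBS, 10.1% for Oxa against PBS and 0.0166% for APAP against PBS. For OAP2 against Oxa, OAP2 against APAP and Oxa against APAP they were 12.9%, 0.474% and 15.4%. Neuroplastin (Nptn), described as a receptor of S100A8 and S100A9, was the only receptor called for OAP2 against PBS. It had 20.30, 18.94 and 19.01 FPKM in OAP2 1 to 3, against 12.81, 17.01 and 12.44 in PBS 1 to 3, a difference of 0.47 ± 0.11 (adjusted p = 0.0260). Nptn was also higher in OAP2 than in Oxa (0.41 ± 0.11, adjusted p = 0.0268) and than in APAP (0.62 ± 0.11, adjusted p = 0.0296), and its OAP2 libraries lay above the other 9. Each of these Nptn calls was nonetheless lost when some single libraries were left out, OAP2 1 and OAP2 2 among them in every case (adjusted p up to 0.177). Against PBS, Oxa called Mcam, a cell adhesion receptor, higher and Tlr4, the toll-like receptor that senses endotoxin, lower. Mcam had 5.77, 5.41 and 5.73 FPKM in Oxa 1 to 3, against 2.30, 1.49 and 3.23 in PBS 1 to 3 (1.28 ± 0.26, adjusted p = 0.00973). Tlr4 had 3.02, 2.51 and 2.84 FPKM in Oxa 1 to 3, against 3.49, 3.70 and 5.01 in PBS 1 to 3 (-0.53 ± 0.14, adjusted p = 0.0287), a call lost without any Oxa library or PBS 3. Tlr4 was higher in OAP2, at 5.65, 5.40 and 4.68 FPKM, than in Oxa (0.92 ± 0.14, adjusted p = 0.00135), and this call and that of Mcam for Oxa against PBS held in every alternative setting. APAP against PBS called 0 of the 6, and Oxa against APAP called Mcam (0.98) and Alcam (0.51) higher, both lost without at least 4 of the 6 libraries in turn.

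Between 250 kb before the outermost members and 250 kb after them, 12 other genes were tested. Their calls stand beside shares of all tested genes of 5.25% for OAP2 against PBS, 10.1% for Oxa against PBS and 0.0166% for APAP against PBS. For OAP2 against Oxa, OAP2 against APAP and Oxa against APAP the shares were 12.9%, 0.474% and 15.4%. OAP2 against PBS called 1 of these, Dennd4b (-0.69, adjusted p = 0.0212), and the median of the 12 was 0.04. Oxa against PBS called Gatad2b higher (0.59, adjusted p = 0.0150) and Dennd4b lower (-0.55, adjusted p = 0.0407), with a median of 0.07. APAP against PBS and OAP2 against APAP called 0 of the 12. OAP2 against Oxa called Ints3 lower (-0.33, adjusted p = 0.0423), and Oxa against APAP called Gatad2b (0.57, adjusted p = 0.0126) and Snapin (0.39, adjusted p = 0.0496) higher. Each of these neighbour calls was lost without at least 2 of the 6 libraries in turn. Beside S100a4, which fell with OAP2, the nearest tested neighbours S100a3 (-0.56) and S100a6 (-0.50) did not pass the test with all 12 libraries.

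**Figure D4:**
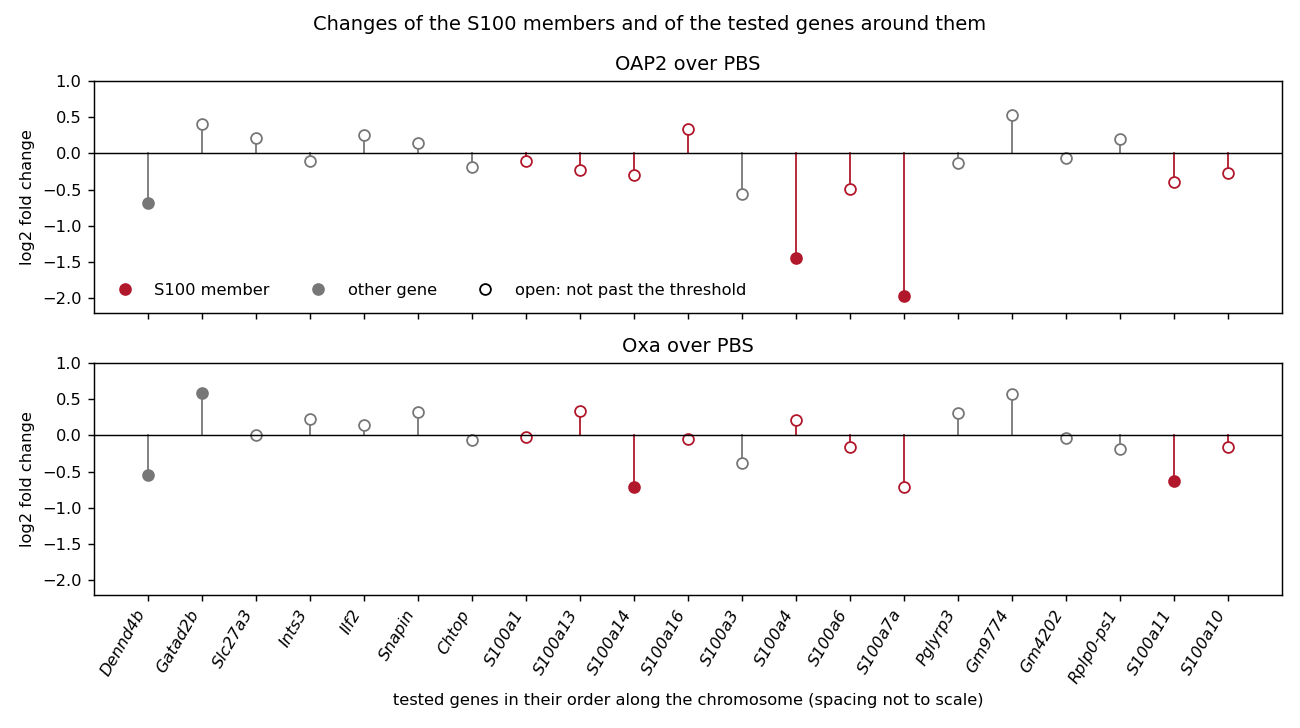
Log2 fold changes (vertical axes, edgeR) of the 9 S100 genes (red) and the 12 other tested genes around them (grey), in chromosome order without scale, for OAP2 over PBS and Oxa over PBS. Filled points pass an adjusted p of 0.05. S100a4 and S100a7a stand lowest for OAP2, at -1.44 and -1.97, and S100a14 and S100a11 are the filled members for Oxa.

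The genes whose log2 CPM followed a called member most closely were found over the 12 libraries and again over the 11 without PBS 2. Nearest to S100a4 was the cyclin-dependent kinase gene Cdk4 (Pearson r of 0.962), followed by Mab21l4 (0.947) and the aquaporin gene Aqp5 (0.938), and the same 3 genes came up without PBS 2 (0.955 to 0.961). S100a7a was followed by Dynap (0.986), the apelin gene Apln (0.962) and Wdr70 (0.940), of which Dynap alone stayed among the nearest 3 without PBS 2, at 0.986. Emp1 (0.956), Nop56 (0.955) and Nudcd2 (0.941) were nearest to S100a11, and Emp1 (0.963) and Nop56 (0.957) stayed. For S100a14 the nearest were Stambpl1 (0.950), Cth (0.938) and Nt5e (0.929), and without PBS 2 a separate set took their place, Mrpl23 (0.968), Epb41l4aos (0.954) and Trappc5 (0.954). These likenesses were picked from 12036 genes as the highest and are a description with no test.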

How the data were processed

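RNA was measured in 12 libraries of 4T1 cells, with strand-marked (dUTP) paired reads per the labels' protocols. Per the submitters' processing notes, build mm9 and the tools edgeR, DESeq2, StringTie 2.1.6, HISAT2 2.2.1 and cutadapt 1.9 were used, without roles. Of 29864 genes matched to GENCODE M21, 91.1% have the same position in GRCm38, as do all 9 members, so positions are given in GRCm38. The sources used here do not give the strand used for counting.

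Per the file headers, the authors deposited FPKM, scaled by them to transcript length and library, and an estimated count for each gene and library, which they left unscaled and which is already whole. Levels are the deposited FPKM. After TMM scaling, edgeR 4.0.16 in R 4.3.3 fitted the counts by quasi-likelihood (glmQLFit and glmQLFTest, 2-sided), with a mean for each of the 4 groups. The filter kept genes at 1 FPKM or more in 3 or more libraries. Calls are at a Benjamini-Hochberg adjusted p of under 0.05. The plan assumed raw counts, and the same test was kept for the estimated ones. Standard errors were approximated from each fold change and its F statistic. The prior count of log2 CPM was 2. The scripts were checked on simulated data. Any pair of libraries differed in the counts of at least 97% of genes. Between libraries of a group, the common coefficient of variation in edgeR was 18.1%. The main fit used no pairing. Deviations of the 18 pairs of libraries with the same replicate number in their titles correlated at -0.152 to 0.155. Pairs with different numbers were not computed beside them, so these values cannot decide whether the numbers mark a pairing.

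The members, gene lists, markers and tests were chosen with earlier results of these data known. All members are named, with list genes that were called in any comparison, otherwise the 2 of highest mean FPKM, and the 3 genes most like each called member, leaving out predicted genes and pseudogenes. Alternatives were DESeq2 1.42.0, RLE scaling, other filters, limma 3.58.1 on log2(FPKM + 1) and log2(FPKM + 0.1), fitting only the groups compared, a replicate block and leaving out libraries.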

Additional observations from a re-analysis of the deposited data

How the results depend on the processing

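Over 76 differences of members and named genes and 1199 settings, 998 kept direction and side of the threshold, 156 lost a call, 19 gained one and 26 reversed direction. The 26 belong to 10 differences, 0 of them called. Leaving out PBS 2 and OAP2 3 together called 5 members for OAP2 against PBS, 1 for APAP against PBS, 5 for OAP2 against Oxa and 2 for OAP2 against APAP. The same fits called 2838, 72, 3426 and 1438 of all tested genes, against 632, 2, 1557 and 57 with all 12 libraries. With only the 6 libraries of OAP2 and PBS, 0 members were called, in a fit that called 38 genes against 632. With no filter on low values, 1 member was called for OAP2 against Oxa, where 1026 genes were called against 1557, and 1 for Oxa against APAP. For Oxa against APAP the calls over all genes in that fit are not given here, so its member count stands without a share. DESeq2 called 1 for APAP against PBS and 1 for OAP2 against APAP, with 97 and 506 of all tested genes called against 2 and 57. Leaving out each library in turn gave 2 to 5 members for OAP2 against PBS, 1 to 2 for Oxa against PBS, 1 to 2 for OAP2 against Oxa, 0 to 1 for OAP2 against APAP and 1 to 2 for Oxa against APAP. The calls over all tested genes moved as well. They ran from 252 to 1976 for OAP2 against PBS, 688 to 1501 for OAP2 against Oxa and 0 to 125 for OAP2 against APAP. With the replicate number as a block, member counts were 2, 2, 0, 3, 0 and 3 in the 6 comparisons, as without it. The block left 513 genes called for OAP2 against PBS, 3 for APAP against PBS, 1421 for OAP2 against Oxa and 30 for OAP2 against APAP. Without it these were 632, 2, 1557 and 57. Not given here are the calls over all genes for Oxa against PBS and Oxa against APAP, with the block or with single libraries left out. Of the named genes, Il1a (adjusted p = 0.123), Tlr4 for Oxa against PBS (0.05), Ints3 (0.0537), Alcam (0.0517) and Snapin (0.0578) lost their calls with the block. The cause of these shifts was not tested.

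Reversed differences, all uncalled, were small. Without PBS 2 and OAP2 3, Oxa against PBS gave 0.09 for S100a1, 0.082 for S100a6 and 0.009 for S100a16, and OAP2 against APAP gave -0.031 for S100a6 and -0.118 for S100a10. Removing the length trend gave 0.075 for S100a1 in Oxa against PBS, and limma on log2(FPKM + 1) gave 0.000201 for S100a14 in OAP2 against APAP. Leaving out each library in turn, OAP2 against APAP ran from -0.118 to 0.372 for S100a10, -0.191 to 0.154 for S100a13, -0.130 to 0.066 for S100a14 and -0.031 to 0.318 for S100a6. OAP2 against Oxa ran from -0.288 to 0.207 for S100a1 and -0.421 to 0.076 for S100a10, and OAP2 against PBS from -0.308 to 0.114 for S100a1. Oxa against PBS ran from -0.295 to 0.144 for S100a1, -0.207 to 0.061 for S100a16 and -0.337 to 0.082 for S100a6.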
